A study of Homo sapiens with 6 samples.

Results

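Polycomb marking was described at 9 regulators of kidney development, PAX2, PAX8, WT1, SIX2, SALL1, CITED1, EMX2, OSR1 and LHX1, in peak lists of ACHN cells, a human renal carcinoma line. The genes were taken as named, all 9 of 20033 protein-coding genes on chromosomes 1 to 22, X and Y, and each was examined in its gene plus 5 kb and plus 50 kb on both sides. The groups were H3K27me3 in ZCCHC8-KO, H3K27me3 in ZCCHC8-WT, EZH2 in ZCCHC8-KO and EZH2 in ZCCHC8-WT cells. Each group was 1 ChIP library, with peaks listed against the input of the same genotype, so differences between genotypes have no replicate check and were not tested. ZCCHC8 holds together NEXT, an RNA exosome adaptor of the nucleus, and the series addresses its link to H3K27me3. The sources used here give neither the read depth of a library nor whether the KO cells were 1 clone or a pool.

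EZH2 is the methyltransferase of the Polycomb complex PRC2, which places H3K27me3, a mark of silenced developmental genes. In the embryonic kidney, OSR1 and PAX2 mark the intermediate mesoderm, SIX2 keeps nephron progenitors self-renewing, and WT1, SALL1 and CITED1 are expressed in the progenitor-bearing cap mesenchyme. EMX2 acts in the ureteric bud, LHX1 in the first epithelial vesicle, and PAX8 with PAX2 in the nephron lineage, where both are common markers of renal tumours.

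The lists held 69840 peaks for H3K27me3 in KO, 93095 for H3K27me3 in WT, 19566 for EZH2 in KO and 30734 for EZH2 in WT. ZCCHC8 itself had no peak within 50 kb in any list, so the lists do not check the knockout, and peaks carry no expression level against which the cell type could be checked. A gene is called marked when at least 1 peak touches its window. Covered share is the percent of the window's bases under peaks. Scores are the authors' values per peak, ran from 4 upward in KO lists and from 5 upward in WT lists, and have no stated meaning, so the same score may not mean the same in each list.

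Of the 6 genes with promoters in the RefSeq table used (GRCh38.p14, 12 promoters), only EMX2 had a listed peak over one, in windows from 250 bases before to 50 after the start site. Its promoter is shown with 3 promoters of the set that no peak touched: SIX2, whose surroundings were marked, CITED1, which had an EZH2 peak in KO 363 bp away, and PAX8, the promoter of the 12 farthest from any EZH2 peak. An untouched promoter was the common case in every list. Of all 35116 promoters, EZH2 peaks touched 0.430% in KO and 0.646% in WT, and H3K27me3 peaks 0.695% in KO and 0.886% in WT. Capitals mark CG dinucleotides, the sequence feature of CpG islands.
EMX2, chr10:117542496-117542795, plus strand: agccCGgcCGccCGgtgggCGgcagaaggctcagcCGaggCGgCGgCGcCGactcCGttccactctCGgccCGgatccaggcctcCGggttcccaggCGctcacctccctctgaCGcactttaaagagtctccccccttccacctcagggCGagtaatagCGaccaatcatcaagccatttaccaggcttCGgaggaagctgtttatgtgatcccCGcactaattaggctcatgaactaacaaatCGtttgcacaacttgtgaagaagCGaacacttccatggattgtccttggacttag
SIX2, chr2:45009403-45009702, minus strand: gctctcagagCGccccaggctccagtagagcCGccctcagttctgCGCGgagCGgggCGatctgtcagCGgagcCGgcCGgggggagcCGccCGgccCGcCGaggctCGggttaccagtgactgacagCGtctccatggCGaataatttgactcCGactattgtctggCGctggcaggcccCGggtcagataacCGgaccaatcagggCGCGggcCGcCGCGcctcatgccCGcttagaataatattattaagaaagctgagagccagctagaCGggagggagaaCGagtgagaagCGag
CITED1, chrX:72307108-72307407, minus strand: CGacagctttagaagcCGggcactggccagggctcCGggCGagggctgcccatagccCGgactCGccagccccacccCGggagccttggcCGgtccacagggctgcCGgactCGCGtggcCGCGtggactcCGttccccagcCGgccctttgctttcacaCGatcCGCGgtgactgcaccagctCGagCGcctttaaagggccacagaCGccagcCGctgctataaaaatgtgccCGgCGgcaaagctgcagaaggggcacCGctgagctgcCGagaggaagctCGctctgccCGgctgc
PAX8, chr2:113278872-113279171, minus strand: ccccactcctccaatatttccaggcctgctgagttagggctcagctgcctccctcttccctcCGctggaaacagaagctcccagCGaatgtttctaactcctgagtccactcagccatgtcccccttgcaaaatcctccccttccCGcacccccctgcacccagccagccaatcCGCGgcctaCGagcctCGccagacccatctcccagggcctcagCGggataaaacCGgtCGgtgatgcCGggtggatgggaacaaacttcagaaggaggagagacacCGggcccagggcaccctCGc
Under EZH2 peaks lay 223 of the 300 EMX2 promoter bases in KO and 265 in WT, and no H3K27me3 peak touched it in either genotype. The EMX2 promoter held 21 CG and was 58% G or C, SIX2 29 CG, CITED1 28 and PAX8 13, against a median of 14 over all 35116 promoters of the table. Over the 22198 promoters of protein-coding genes the median was 21, the same as in the EMX2 promoter. The 4 letters CGCG, which read the same on both strands, were absent from the EMX2 promoter. They were present in 9 of the 12 promoters of the set, which belong to 6 genes. Of all promoters 49.9% held them, and of promoters of protein-coding genes 62.3%. The number of CG in the EMX2 promoter lay between the values of the unmarked promoters.

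EMX2 lies at chr10:117542746-117549546, a 6801-bp gene overlapped at its 5′ end by its antisense RNA EMX2OS. It carried the only EZH2 peaks of the set over 1000 bp wide. In its gene plus 5 kb, EZH2 peaks covered 26.9% of bases in KO (6 peaks, 4521 bp) and 33.0% in WT (4 peaks, 5544 bp). Among the 20033 genes these shares ranked 7 in KO and 3 in WT. In KO the widest peak was 1962 bp with a score of 15 and ran from 2.65 to 0.692 kb upstream of the start site. In WT the widest was 2808 bp with a score of 18, ran from 2.79 kb upstream to just past the start site, and was followed inside the gene by a 1936-bp peak. Scores below these made up 98.4% of the KO list and 99.7% of the WT list. Both genotypes thus listed EZH2 over the same promoter region, and 2911 bp were covered in both, 64.4% of the KO bases and 52.5% of the WT bases. The lists differed in layout, since KO had peaks of 939 and 442 bp between 4.65 and 6.97 kb, toward the 3′ end, where WT had none.

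H3K27me3 lay around the EMX2 promoter and not on it. The stretch without an H3K27me3 peak around the start site was 14.3 kb long in KO and 8.05 kb in WT. In gene plus 5 kb the H3K27me3 covered share was 1.25% in KO (1 peak, 210 bp) and 5.18% in WT (3 peaks, 870 bp), and no base was covered in both. The single KO peak lay wholly within the 939-bp EZH2 peak of KO. In gene plus 50 kb the order was the other way, 9.85% in KO (25 peaks, 10524 bp) and 6.34% in WT (20 peaks, 6766 bp). Most of this lay upstream, over EMX2OS, with 17 peaks and 7957 bp in KO and 15 peaks and 5158 bp in WT. The other side had 7 peaks and 2357 bp in KO and 4 peaks and 1252 bp in WT. A block near 20 kb upstream was listed in both, as a 1498-bp peak in KO and as peaks of 1021 and 411 bp in WT. KO alone had a 1251-bp peak from 17.4 to 16.2 kb upstream. Of the bases, 2187 were covered in both genotypes, 20.8% of the KO bases and 32.3% of the WT bases.

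**Figure D1:**
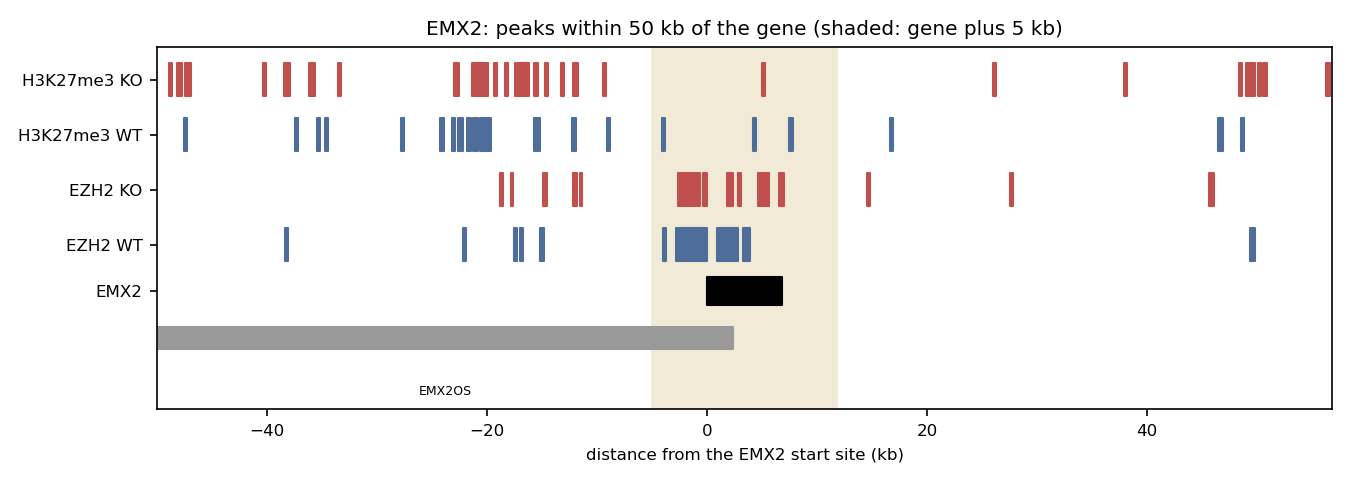
Peaks by distance from the EMX2 start site in kb, 1 row per library, KO in red above WT in blue for each antibody; bars are peaks, narrow ones drawn at a minimum width, black is EMX2 and grey EMX2OS. EZH2 peaks of up to 1962 bp in KO and 2808 bp in WT lie at or within 3 kb of the start site, inside a stretch of 14.3 kb in KO and 8.05 kb in WT with no H3K27me3 peak.

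Promoters with EZH2, EMX2 among them, had an H3K27me3 peak more often than all promoters, both on the promoter and within 5 kb. Of 151 promoters touched by an EZH2 peak in KO, 19 were touched by an H3K27me3 peak (12.6%, 95% Clopper-Pearson interval 7.75 to 19.0), while 70.9% had one within 5 kb (62.9 to 78.0). Of all promoters in KO, 0.695% were touched by an H3K27me3 peak and 13.5% had one within 5 kb. In WT the counts were 26 of 227 (11.5%, 7.62 to 16.3), with 70.04% within 5 kb (63.6 to 75.9), against 0.886% and 15.9% of all promoters. Both shares were thus higher at promoters with EZH2 than over all promoters. Counts within 5 kb include the touched promoters and use a wider window, so these shares could not be lower than those on the promoter. The intervals cover counting error only and take promoters as independent, though the 151 in KO belonged to 142 genes and the 227 in WT to 213. EMX2 was in each genotype among those with H3K27me3 within 5 kb of the promoter and not on it. In KO this rests on 1 peak of 210 bp with a score of 5, which lay 4966 bp from the promoter, next to the limit.

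SIX2 lies at chr2:45005182-45009452 on the minus strand and had the second highest covered share of the set in gene plus 50 kb in each list, with peaks around the gene and almost none on it. H3K27me3 covered 4.17% of gene plus 50 kb in KO (12 peaks, 4344 bp) and 5.06% in WT (11 peaks, 5274 bp), and no H3K27me3 peak fell in gene plus 5 kb in either. The H3K27me3 bases were spread differently, with 1885 bp on the lower-coordinate side, downstream of the gene, in KO and 3546 bp in WT. On the upstream side they came to 2459 bp in KO and 1728 bp in WT. The widest WT peak, 1123 bp and 6.36 kb upstream of the start site, overlapped no KO peak. EZH2 covered 1.71% of gene plus 50 kb in KO (7 peaks, 1778 bp) and 3.14% in WT (12 peaks, 3277 bp). One of the WT peaks, 257 bp with a score of 10, lay within the gene. In KO the nearest EZH2 peak was 21.9 kb from the gene. Of the KO EZH2 peaks at SIX2, 4 of 7 overlapped an H3K27me3 peak of KO, and of the WT peaks 2 of 12 overlapped one of WT. These 4 KO peaks lay between 33.4 and 39.6 kb upstream, where both genotypes had peaks of both antibodies.

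WT1, a zinc finger factor needed for progenitors and later for podocytes, lies at chr11:32387775-32435539 on the minus strand. It was the gene with the largest H3K27me3 excess in KO within gene plus 5 kb, 3.86% in KO (7 peaks, 2229 bp) against no peak in WT. Of the KO peaks, 6 lay inside the gene, between 9.40 and 44.6 kb downstream of the first start site. Their widths were 183 to 596 bp and all 7 had scores of 5 or 6, so none was left at scores of 7 or more. In gene plus 50 kb the shares were 3.27% in KO (13 peaks) and 1.15% in WT (8 peaks). Most peaks outside the gene lay upstream over the antisense gene WT1-AS, which held 5 H3K27me3 peaks in KO and 5 in WT. Only 85 bp were covered in both genotypes. EZH2 was sparse, with 1 peak of 202 bp in KO and 3 peaks of 619 bp in all in WT, all inside the gene. None of them overlapped an H3K27me3 peak of the same genotype. Across genotypes, the 176-bp EZH2 peak of WT lay inside the 596-bp H3K27me3 peak of KO.

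SALL1, a zinc finger factor of the progenitors, lies at chr16:51135982-51152334. It was the only gene of the set with a higher covered share in KO for both antibodies in both windows. For H3K27me3 in gene plus 5 kb this rests on 115 bp (0.436%) in KO, where 1 peak, 4.89 kb away, reached over the window's edge. No H3K27me3 peak lay in the gene itself. In gene plus 50 kb H3K27me3 covered 2.94% in KO (11 peaks, 3416 bp) and 1.71% in WT (5 peaks, 1987 bp). Of these, 9 peaks in KO and all 5 in WT lay on the lower-coordinate side of the gene, so the block was one-sided in WT. EZH2 covered 1.35% in KO (6 peaks) and 0.712% in WT (4 peaks). In gene plus 5 kb the EZH2 shares were 2.41% in KO (2 peaks of 360 and 275 bp, scores of 5) and 0.740% in WT (1 peak of 195 bp, score of 5). No EZH2 base was covered in both genotypes. Chromosome 16 had more H3K27me3 peaks in KO as a whole, with a KO/WT ratio of peak numbers of 1.17, and its EZH2 ratio was 0.923. The part of this ratio in the SALL1 values was not tested.

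CITED1, a transcriptional coactivator of progenitors, lies at chrX:72301646-72307157 on the minus strand. Most of its peaks were close to the gene and in WT. EZH2 covered 1.30% of gene plus 5 kb in KO (1 peak, 202 bp) and 6.45% in WT (3 peaks, 1001 bp), of which 2 WT peaks lay inside the gene. A second EZH2 peak of KO, 176 bp, lay 33.6 kb away inside the neighbouring gene HDAC8. The single H3K27me3 peak was in WT, 261 bp at 3.05 kb upstream. Chromosome X had few peaks, 57 in KO and 149 in WT for EZH2, a ratio of 0.383 against 0.637 over the genome. Its H3K27me3 peaks numbered 272 in KO and 371 in WT. The part of these chromosome-wide numbers in the CITED1 values was not tested.

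PAX2, at chr10:100735396-100829944, had no peak of either antibody in gene plus 5 kb in either genotype. The stretch without H3K27me3 peaks around its first start site was 138 kb long in KO and 136 kb in WT, longer than the gene itself. Upstream of it stood a small EZH2 group, with 2 peaks of 188 and 197 bp in KO and 3 peaks of 178, 407 and 284 bp in WT, the nearest 12.1 kb away in KO and 10.98 kb in WT. Of these, a KO peak with a score of 9 and a WT peak with a score of 20, the highest EZH2 score in the set, overlapped by only 6 bp. H3K27me3 peaks around PAX2 numbered 6 in KO and 7 in WT and lay at least 9.17 kb from the gene. On the downstream side 1 KO peak and 1 WT peak overlapped by 19 bp.

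The other 3 genes had no peak of either antibody in gene plus 5 kb. PAX8, at chr2:113215997-113278921, had 1 H3K27me3 peak in KO, 15.0 kb away, and 1 in WT, 38.0 kb away. Its only EZH2 peak was in WT, 36.7 kb away, inside the neighbouring gene PSD4. OSR1, at chr2:19344874-19358623, had 1 H3K27me3 peak (173 bp) and 1 EZH2 peak (219 bp) in KO, against 4 (982 bp) and 6 (1304 bp) in WT, and the nearest of all was 14.5 kb away. LHX1, at chr17:36936785-36944612, had no H3K27me3 peak in either genotype and no EZH2 peak in KO. Its 1 EZH2 peak, in WT, lay 42.3 kb away inside the neighbouring gene AATF. A gene without listed peaks may lack the mark or be covered by too few reads, and the lists do not tell these apart.

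**Figure D2:**
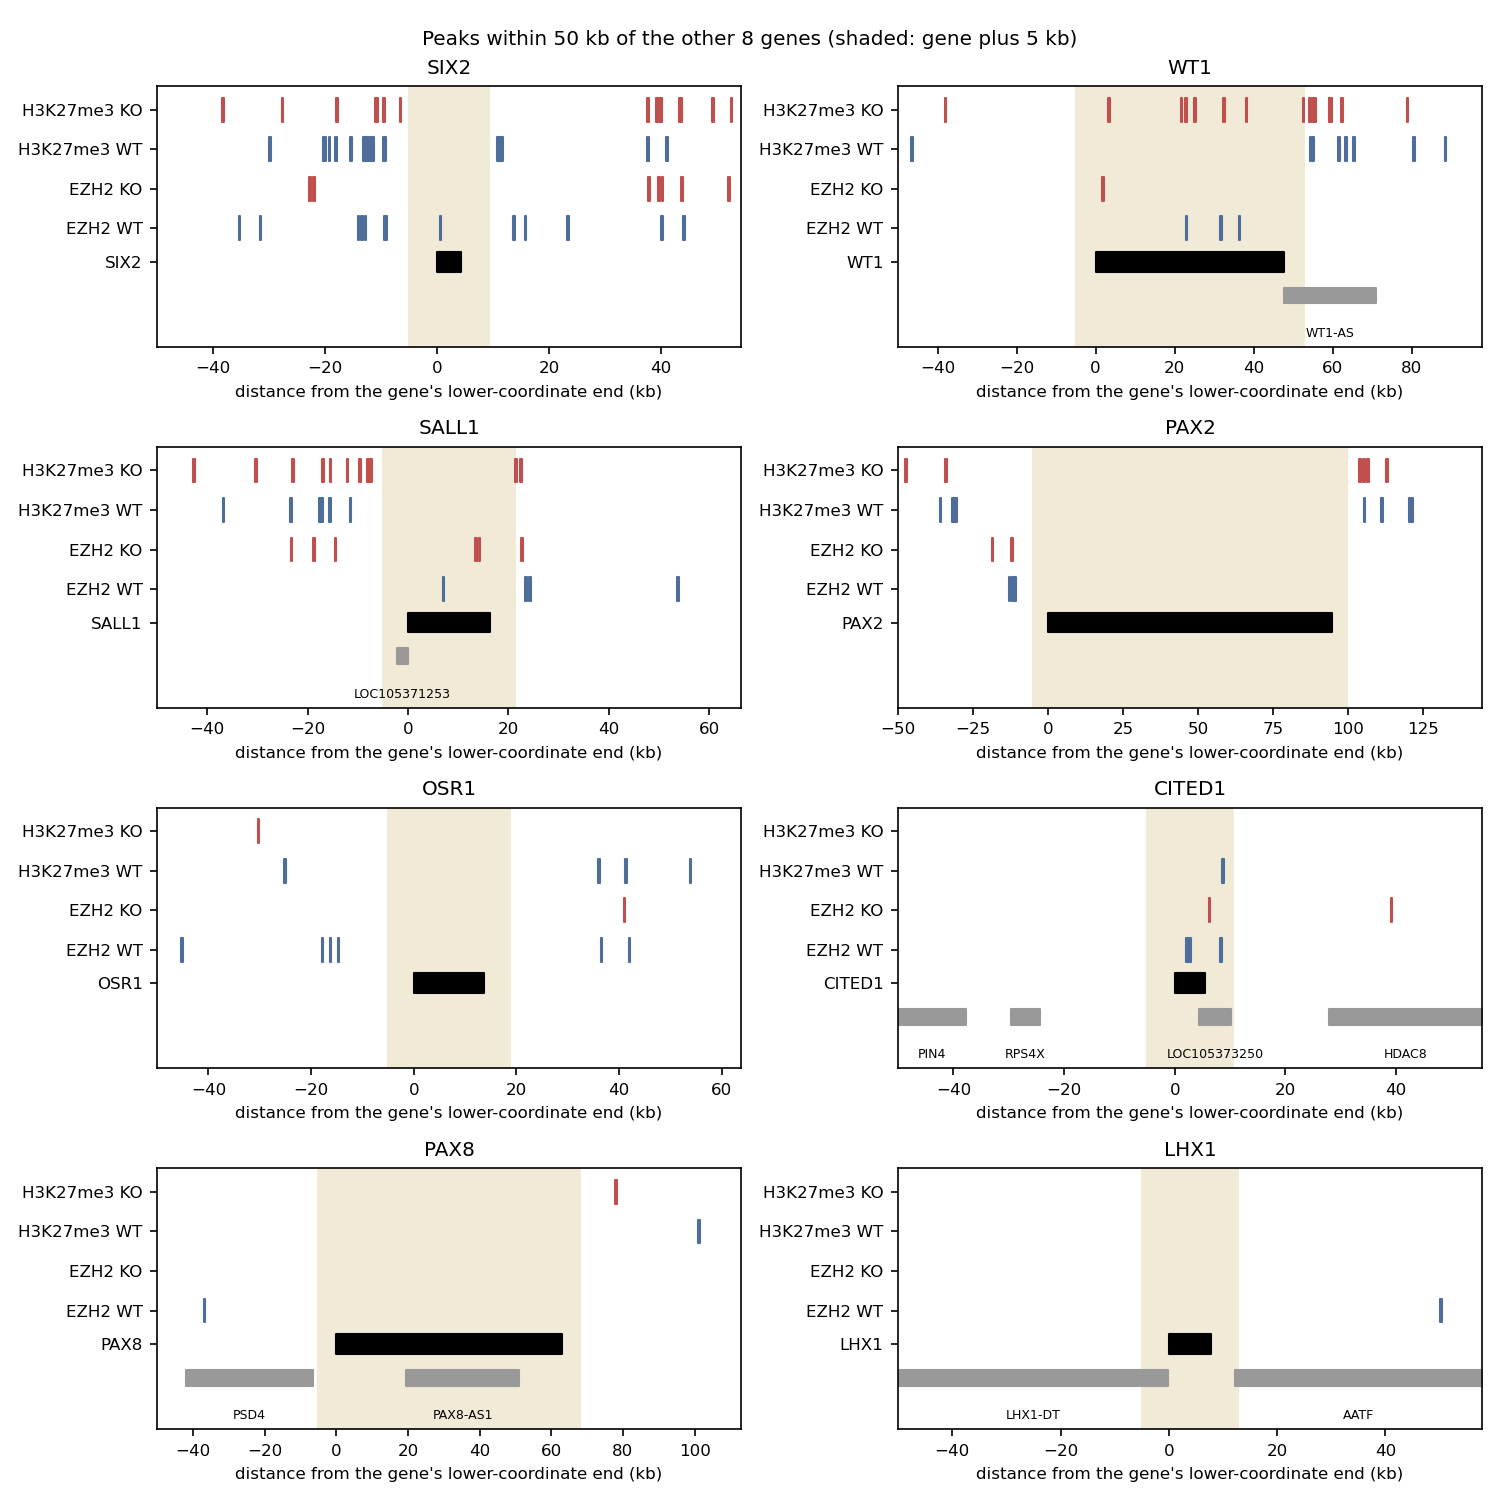
Peaks within 50 kb of the other 8 genes by distance in kb from the lower-coordinate end of the gene, KO in red above WT in blue for each antibody; black is the gene, grey are neighbouring genes (3 noncoding genes beside PAX8, pseudogenes and a miRNA gene are not drawn), and narrow peaks have a minimum drawn width. PAX2 and OSR1 are free of peaks over the gene, WT1 has H3K27me3 peaks inside it in KO, and LHX1 has a single peak.

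Counted over the 9 genes, H3K27me3 marked few close by and most farther out, and EZH2 marked more of them close by. In gene plus 5 kb, H3K27me3 marked 3 in KO (EMX2, SALL1 and WT1) and 2 in WT (EMX2 and CITED1). Among all protein-coding genes 23.1% were marked in KO and 26% in WT, so 3 and 2 of 9 lie near the background. EZH2 marked 4 in KO (EMX2, SALL1, WT1 and CITED1), against 18.3% of all genes, and in WT these 4 and SIX2, against 26.9%. In gene plus 50 kb, H3K27me3 marked 7 in KO and 8 in WT, where 52.6% of all genes were marked in KO and 56.8% in WT. EZH2 marked 7 in KO and all 9 in WT, against 40.6% of all genes in KO and 55% in WT. A window of 50 kb holds marks of neighbours as well. Without the other coding genes and 5 kb around them, H3K27me3 marked 7 in KO and 8 in WT, and EZH2 7 in KO and 7 in WT. No share of all genes was computed with this restriction, so these counts have no background to be read against.

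The genotypes differed in which genes were marked close by. With H3K27me3, EMX2 was marked in both (18.1% of all genes), SALL1 and WT1 in KO only (5.03%), and CITED1 in WT only (7.88%). At SALL1 the H3K27me3 mark was 115 bp at the window's edge. The covered share was higher in KO at SALL1 and WT1 (12.8% of all genes) and lower at CITED1 and EMX2 (18.2%), and it was at least 1 percentage point higher in KO at WT1 (6.13%) and at least 1 point lower at CITED1 and EMX2 (8.5%). With EZH2, EMX2, SALL1, WT1 and CITED1 were marked in both (12.6%), none in KO only (5.75%), and SIX2 in WT only (14.3%). The EZH2 share was higher in KO at SALL1 (10.5%) and lower at CITED1, EMX2, SIX2 and WT1 (22.1%). It was at least 1 point higher in KO at SALL1 (2.74%) and at least 1 point lower at CITED1, EMX2 and SIX2 (4.95%). Both antibodies marked EMX2, SALL1 and WT1 in KO (12% of all genes) and EMX2 and CITED1 in WT (16%).

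In gene plus 50 kb the genotypes shared most marked genes. With H3K27me3, 7 genes were marked in both (45.4% of all genes), none in KO only (7.13%), and CITED1 in WT only (11.4%). The H3K27me3 share was higher in KO at EMX2, SALL1 and WT1 (26.3%) and lower at PAX2, PAX8, OSR1, SIX2 and CITED1 (37.6%). With EZH2, 7 genes were marked in both (31.8%), none in KO only (8.76%), and LHX1 and PAX8 in WT only (23.1%). Peaks of both antibodies stood at 6 genes in KO (31.6%) and at 8 in WT (42.2%).

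**Figure D3:**
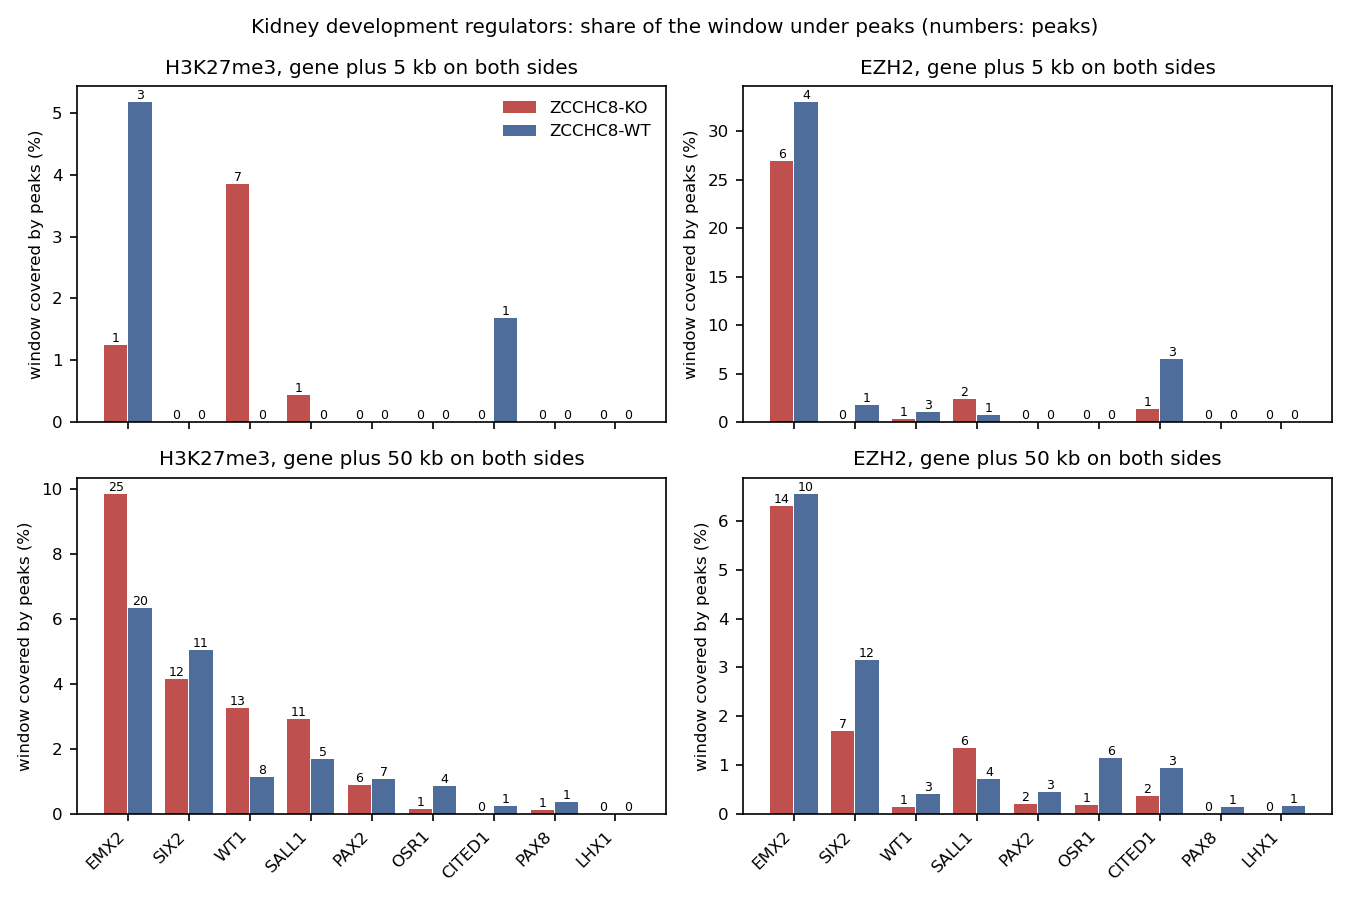
Share of bases under peaks in percent for each gene in gene plus 5 kb (top) and gene plus 50 kb (bottom), KO in red left of WT in blue, with the number of peaks on each bar and 1 library per bar. EMX2 stands out for EZH2 in both genotypes, at 26.9% in KO and 33.0% in WT of gene plus 5 kb.

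With EMX2 included, the 2 antibodies differed in where they lay. Summed over the 9 genes, H3K27me3 covered 0.730% of gene plus 5 kb in KO and 0.323% in WT, and 2.80% in KO and 2.29% in WT of the flanks from 5 to 50 kb. Over all protein-coding genes the shares in gene plus 5 kb were 0.621% in KO and 0.856% in WT, and those of the flanks 0.961% in KO and 1.18% in WT. The flanks of the set were thus above the sum over all genes, and the genes themselves were close to it in KO and below it in WT. Without EMX2 the H3K27me3 shares of the flanks were 1.72% in KO and 1.75% in WT, so the higher value in KO was not there, and those of gene plus 5 kb were 0.704% in KO and 0.0784% in WT. WT1 held 87.3% of the H3K27me3 bases of KO in gene plus 5 kb. EZH2 covered 1.59% of gene plus 5 kb in KO and 2.18% in WT, and 0.702% of the flanks in KO and 0.950% in WT. Over all protein-coding genes these EZH2 shares were 0.174% in KO and 0.266% in WT in gene plus 5 kb, and 0.213% in KO and 0.307% in WT in the flanks. Without EMX2 the EZH2 shares of the set were 0.312% in KO and 0.622% in WT in gene plus 5 kb. Most of the EZH2 close to these genes was thus EMX2, and the rest was still above the sum over all genes. The EZH2 shares of the flanks without EMX2 were 0.485% in KO and 0.868% in WT. Without EMX2, EZH2 was therefore higher in the flanks than in gene plus 5 kb, as H3K27me3 was.

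**Figure D4:**
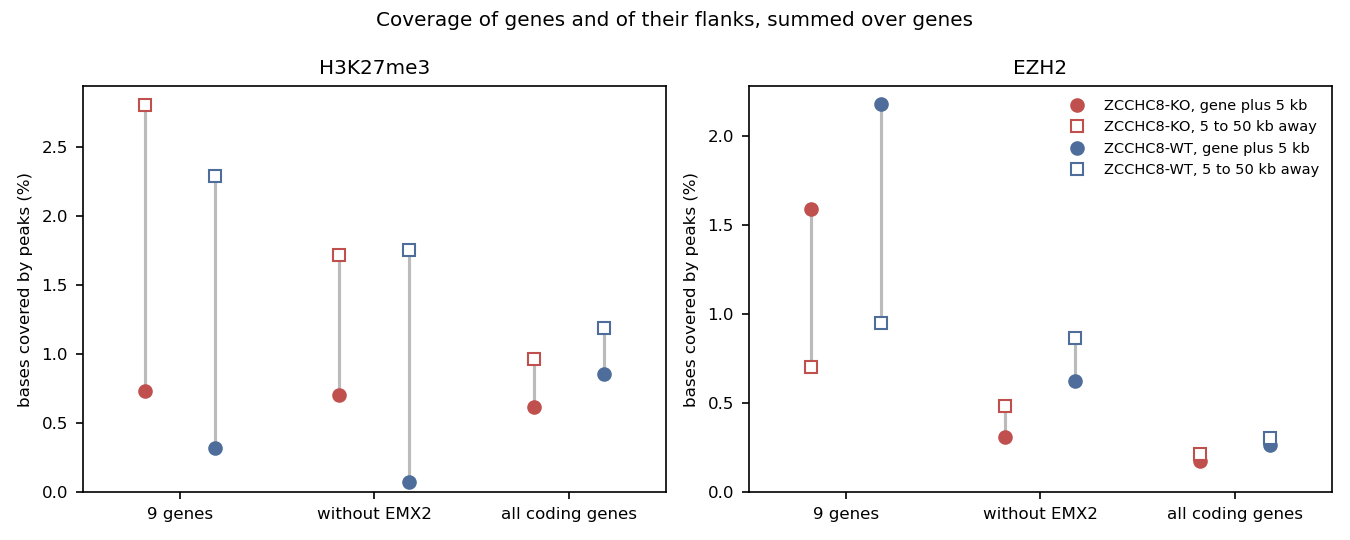
Percent of bases under peaks in gene plus 5 kb (filled circles) and 5 to 50 kb away (open squares), summed over the 9 genes, over the 8 without EMX2 and over all protein-coding genes, KO in red left of WT in blue. H3K27me3 of the 9 genes is higher in the flanks, at 2.80% in KO and 2.29% in WT, and EZH2 is higher in the genes only while EMX2 is included.

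H3K27me3 peaks of the set were more numerous in KO, the other way round from the genome. In gene plus 50 kb there were 69 in KO, covering 25248 bp, and 57 in WT, covering 19648 bp. KO peaks were 54.8% of the 126 (Clopper-Pearson 45.7 to 63.6), against 42.9% of all H3K27me3 peaks of the genome. That interval takes peaks as independent, though EMX2 alone held 25 of the 69 KO and 20 of the 57 WT peaks. It is therefore likely too narrow. The genome value lies below it, and equal numbers in KO and WT lie inside it. The difference was not shared by all genes, as peaks were more numerous in KO at EMX2, SIX2, WT1 and SALL1, fewer at PAX2, OSR1 and CITED1, and equal at PAX8 and LHX1. With scores of 7 or more in both lists, which leaves out more of the KO list, KO peaks were 33.3% of 72 at these genes and 23.5% in the genome, so the larger number in KO did not hold there. Of the chromosomes concerned, the KO/WT ratio of H3K27me3 peak numbers ran from 0.733 on X to 1.17 on chromosome 16.

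EZH2 peaks of the set were fewer in KO, as in the genome, but not when the longer WT list was cut to about the length of the KO list. They numbered 33 in KO, covering 11249 bp, and 43 in WT, covering 15312 bp. KO peaks were 43.4% of the 76 (32.1 to 55.3), against 38.9% in the genome, a value inside the interval. This interval also takes peaks as independent and is likely too narrow, as EMX2 alone held 14 of the 33 KO and 10 of the 43 WT peaks. With the WT list cut by score to 20138 peaks, KO peaks were 53.2% of 62 at these genes and 49.3% in the genome. EZH2 then marked 7 of the 9 genes in gene plus 50 kb in each genotype, and the share of all genes marked with the cut list was not computed. By gene, the EZH2 covered share of gene plus 50 kb was higher in KO at SALL1, where 20.7% of all genes were higher, and lower at the other 8, where 43% were lower. For EMX2 that difference was small, 6.29% in KO and 6.55% in WT, with more peaks in KO (14) than in WT (10).

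Few peaks lay at the same place in both genotypes. Of H3K27me3 WT peaks in gene plus 50 kb, 15 of 57 shared 1 or more bases with a KO peak (26.3%, 15.5 to 39.7), against 15.9% in the genome. Of these 15, EMX2 held 8 and SIX2 3. Of EZH2 WT peaks, 5 of 43 did (11.6%, 3.89 to 25.1), against 5.13%, and EMX2 held 3 of them. At OSR1, CITED1, PAX8 and LHX1 no peak of either antibody overlapped one of the other genotype. Overlap of the antibodies was also limited. In KO 8 of 33 EZH2 peaks overlapped an H3K27me3 peak (24.2%, 11.1 to 42.3) and in WT 3 of 43 (6.98%, 1.46 to 19.1), against 19.0% in KO and 13.97% in WT over the genome. The KO overlaps lay at SIX2 (4), EMX2 (3) and SALL1 (1). With 1 library per group the overlap expected between repeats is unknown.

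By the 4 covered shares of gene plus 5 kb, the protein-coding genes most like EMX2 were HAND1, DLX4, FEV, HMX3 and NKX2-3. Of these, DLX4, HMX3 and NKX2-3 are homeobox genes, HAND1 is a bHLH factor and FEV an ETS factor. Euclidean distance over the 4 libraries ranged from 9.93 points for HAND1 to 15.3 for NKX2-3. HAND1 had EZH2 shares of 25.6% in KO and 28.1% in WT and H3K27me3 shares of 9.05% in KO and 1.77% in WT. The EZH2 shares of these 5 genes lay between 13.7% and 27.8% in KO and between 23.2% and 31.3% in WT. High EZH2 shares follow from the choice, since the genes were picked by these same shares.

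Some close relatives of the 9 genes were marked where the genes themselves were not, among them LHX5, PAX5 and, with H3K27me3, SIX6. LHX5, the closest relative of LHX1, had EZH2 over 23.03% of gene plus 5 kb in KO and 15.1% in WT, where LHX1 had none, and PAX5, of the PAX2 and PAX8 subfamily, 2.46% in KO and 1.88% in WT. H3K27me3 covered 3.34% of PAX5 in KO and 3.57% in WT. EMX1, the paralogue of EMX2, had 10.7% in KO and 18.1% in WT for EZH2, and 5.80% in KO and 10.9% in WT for H3K27me3. EMX2 itself was marked, with 26.9% in KO and 33.0% in WT for EZH2, and 1.25% in KO and 5.18% in WT for H3K27me3. SIX6, an eye and pituitary factor related to SIX2, had H3K27me3 over 5.19% in KO and 12.4% in WT. SALL2 had EZH2 over none in KO and 3.09% in WT, where SALL1 had 2.41% in KO and 0.740% in WT. No peak was listed in gene plus 5 kb of PAX1, PAX6, OSR2, CITED2, CITED4 or SALL3. Of 18 paralogues, H3K27me3 marked 9 in KO and 10 in WT, against 23.1% of all genes in KO and 26% in WT. EZH2 marked 9 in KO and 11 in WT, against 18.3% of all genes in KO and 26.9% in WT.

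Other genes of nephron development were described by 5 lists with 99 genes in all, the 9 not counted. H3K27me3 marked 46 in KO (46.5%) and 52 in WT (52.5%) in gene plus 5 kb, against 23.1% of all genes in KO and 26% in WT. EZH2 marked 42 in KO (42.4%) and 55 in WT (55.6%), against 18.3% of all genes in KO and 26.9% in WT. Marked in both genotypes were 37 with H3K27me3 (18.1% of all genes) and 33 with EZH2 (12.6%). With the EZH2 list of WT cut to about the length of that of KO, EZH2 marked 42 in KO and 44 in WT. The share of all genes marked with the cut list was not computed. The counts of single lists that follow use the full peak lists and have the shares of all genes given above as background. The covered share was at least 1 point higher in KO for 6 genes and at least 1 point lower for 20 with H3K27me3, and for 6 and 17 with EZH2, where among all genes 6.13% were higher and 8.5% lower with H3K27me3, and 2.74% and 4.95% with EZH2. Median H3K27me3 shares were 0% in KO and 0.212% in WT, those of EZH2 0% in KO and 0.185% in WT, and all 4 medians over all genes were 0%. Window length was not matched between the lists and all genes. Of 20 housekeeping genes none was marked in KO by either antibody, and in WT only PSMB2 was, by both.

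In the nephron progenitor list of 25, H3K27me3 marked 12 in KO and 18 in WT, with all 12 among the 18. DAPL1, a gene expressed in progenitors as they commit, had 11.7% in KO and 34.1% in WT, and LIN28B, a blocker of let-7 maturation, 0.574% in KO and 4.44% in WT. EYA4 had 3.97% in KO and 1.62% in WT. With EZH2, WNT9B, the ureteric signal that induces nephrons, had 0.694% in KO and 4.31% in WT, and FGF8, which keeps early nephrons alive, 6.69% in KO and 5.08% in WT. In the ureteric bud list of 26, H3K27me3 marked 11 in each genotype, but 6 in both. WNT6 had 6.71% in KO and none in WT, and SOX9, a factor of the bud tips, none in KO and 6.62% in WT. EZH2 covered 4.27% of SOX9 in KO and 8.35% in WT, and 6.85% of GATA3, a factor of the nephric duct, in KO and 6.62% in WT.

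In the early nephron list of 22, H3K27me3 marked 8 in each genotype, and EZH2 6 in KO and 10 in WT. POU3F3, a factor of the loop of Henle and distal tubule, had the largest EZH2 excess, 13.2% in KO (17 peaks) and none in WT. SIM1 had 5.78% in KO and 2.84% in WT, and IRX1 none in KO and 1.95% in WT. In the stroma list of 14, H3K27me3 marked 7 in each genotype, and EZH2 6 in KO and 8 in WT. TCF21, which is also on the podocyte list, had H3K27me3 over 1.06% in KO and 8.41% in WT, and MEIS1 over 0.243% in KO and 3.38% in WT. In the podocyte list of 14 each antibody marked 9 in each genotype. MAGI2, a slit diaphragm scaffold on chromosome 7, had H3K27me3 over 0.412% in KO (23 peaks) and 15.5% in WT (469 peaks).

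**Figure D5:**
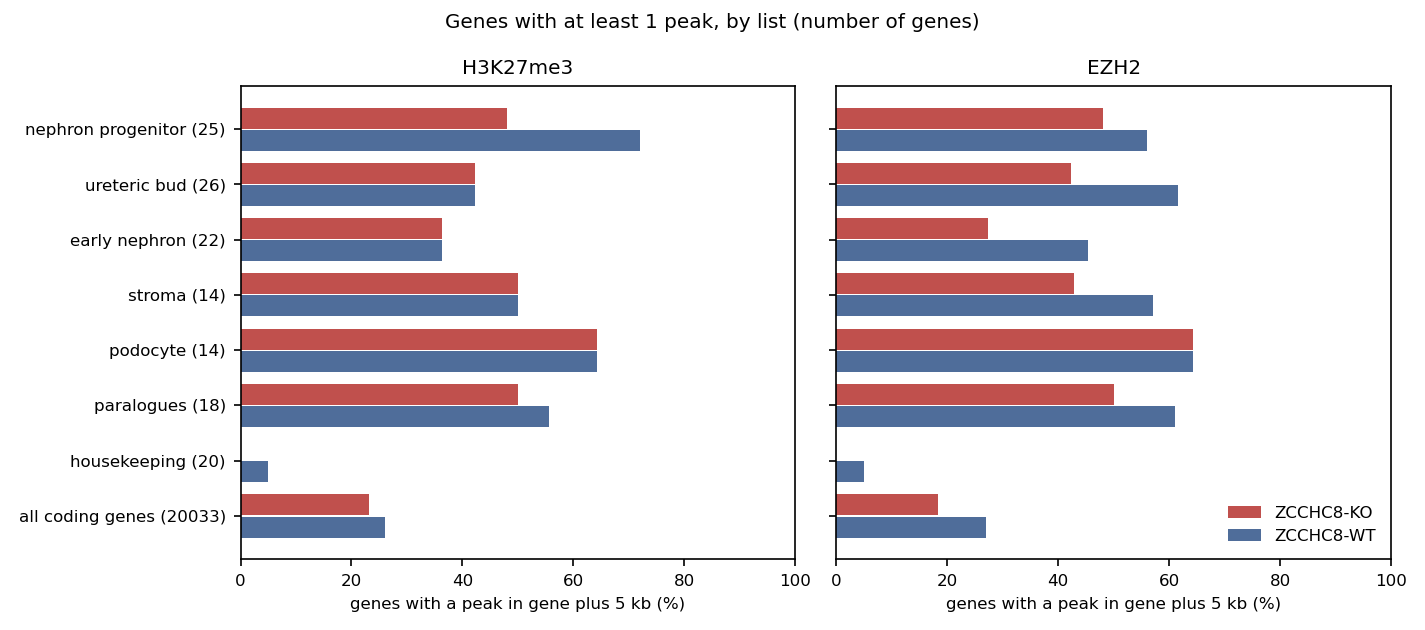
Percent of genes with at least 1 peak in gene plus 5 kb, by list, with the number of genes in brackets, KO in red above WT in blue, for H3K27me3 (left) and EZH2 (right). The nephron progenitor list has 12 of 25 genes marked by H3K27me3 in KO and 18 in WT, and the housekeeping list has none in KO.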

How the data were processed

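Peak lists of 4 ChIP libraries were used, and the 2 inputs entered only through those lists. Groups came from titles and genotype labels. The submitters' processing notes list cutadapt 1.9.3, Bowtie2 2.2.4 and the build hg38. For peak caller, read depth and meaning of the score, no statement is given in the sources used here. A deposited list has no header and gives each peak's start, end, length in bp and the authors' score. The length column showed that coordinates count from 1. Identical lines, up to 81 for a peak, were merged into one.

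Gene windows used the RefSeq gene table of GRCh38.p14. Software was pandas 2.3.3, NumPy 2.4.6 and SciPy 1.17.1 under Python 3.11.15, with matplotlib 3.10.9 for plots. Shares have exact 95% Clopper-Pearson intervals, which take peaks or promoters as independent and cover counting error only. Tested on simulated data, the routine recovered peaks and covered bases in 500 of 500 windows. The 9 genes, the other gene lists, the alternatives and the naming rule were chosen with earlier results of these data known. The rule named the 9 genes, their coding neighbours, per list and antibody the 2 genes with the largest excess and deficit (a selection is printed), and the 5 genes nearest to the most covered of the 9. PAX5 and the paralogues with no peak were named after their values were seen. Alternatives changed the score threshold, list length, window, overlap rule, line counting and the genes included. No genome sequence was used, so peak sequences are not shown.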

Additional observations from a re-analysis of the deposited data

How the results depend on the processing

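Of the alternatives to counts and shares, 49 stayed within 1.5 times the count or within the interval of the share, and 13 did not. With scores of 7 or more in both lists, the genes marked in gene plus 5 kb were 1 for H3K27me3 in KO and 1 for EZH2 in KO, those marked by EZH2 in gene plus 50 kb in KO were 4, and the nephron development genes marked in KO were 23 for H3K27me3 and 22 for EZH2. KO peaks then made up 33.3% of H3K27me3 and 27.5% of EZH2 peaks. That threshold leaves 19946 of 69840 KO and 65017 of 93095 WT H3K27me3 peaks. With a 10-kb window H3K27me3 marked 5 genes in KO and 4 in WT, and with a 2-kb window 1 in WT. For the counts of marked genes under these alternatives, no share of all genes was computed. In gene plus 5 kb KO peaks were 69.2% of 13 H3K27me3 peaks. With a KO peak within 500 bp in place of overlap, 40.4% of WT H3K27me3 peaks were shared, and with an H3K27me3 peak within 500 bp, 20.9% of WT EZH2 peaks. The H3K27me3 difference at EMX2 was -3.93 points in gene plus 5 kb and 3.52 points in gene plus 50 kb. The WT1 H3K27me3 difference of 3.86 points and the SALL1 EZH2 difference of 1.67 points were 0 with scores of 7 or more. Apart from the threshold and the windows themselves, the cause of these changes was not tested. The longer H3K27me3 list could be cut by score only to 85445 peaks because of ties. No paired analysis was possible because each group had 1 library and the labels give no replicate numbers. Depth is unknown, so a missing peak does not show a missing mark.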

Other observations

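Over all 35116 promoters of the table, those touched by an H3K27me3 peak held few CG dinucleotides, with a median of 3 in KO (244 promoters) and 2 in WT (311 promoters), against 14 for the untouched promoters in each genotype. Promoters touched by an EZH2 peak had a median of 7 in KO (151 promoters) and 7 in WT (227 promoters), also against 14 for those untouched by EZH2 in each genotype. The EMX2 promoter, with 21 CG, lies above these medians and at the median of 21 over promoters of protein-coding genes.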
